A study of Mus musculus with 6 samples.

Results

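The 39 genes described here encode the enzymes and carriers that take glucose to pyruvate and lactate in the cell, and the complex that passes pyruvate on to the mitochondrion. They were chosen by symbol: every non-control probe of the array that carries 1 of 39 listed gene names was taken, which gave 61 of 55681 distinct probes. All 39 genes were on the array, and 37 of them were among the 24553 genes tested. RNA came from whole testes of male mice on postnatal day 0, of a mixed FVB.129/Sv strain, and was measured on 1-colour Agilent arrays with 1 animal per array. VSKO mice carried Vasa-cre with 1 deleted and 1 floxed allele of Sin3a, a scaffold gene of a histone deacetylase co-repressor complex. In HEMI mice (Vasa-cre; Sin3a deleted/+) only 1 of the Sin3a alleles was deleted, and in WT mice (Vasa-cre; Sin3a +/+) none was. Each of the 3 groups had 2 animals, and all 6 animals carried the Cre. The promoter of the Cre is that of Ddx4 (Vasa, Mvh), a germ cell gene, so that deletion of the floxed allele is aimed at germ cells, which are a minority among the cells of a newborn testis. The sample titles call both the KO and the hemizygous state germ cell-specific. The genotype labels give 1 allele of HEMI and VSKO mice as deleted and do not say whether their other cells carry it too.

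Glycolysis splits glucose into pyruvate in the cytosol and yields ATP and NADH without oxygen. Lactate dehydrogenase turns pyruvate into lactate and regenerates NAD, and monocarboxylate transporters carry the lactate out of the cell; the pyruvate dehydrogenase complex sends pyruvate into the citric acid cycle instead, and its kinases switch that complex off. In the testis, somatic Sertoli cells are known for a high rate of glycolysis and for supplying lactate to germ cells. Many of these genes, among them Ldha, Pgk1, Eno1, Slc2a1 and Pdk1, are known targets of the hypoxia-inducible factors.

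The share of spots well above background lay between 62.4% and 64.5% in VSKO, 62.6% and 63.5% in HEMI, and 59.2% and 61.6% in WT, and no spot was saturated. Replicate arrays correlated at 0.987 in VSKO, 0.989 in HEMI and 0.992 in WT over all genes tested. Sin3a had log2 signals of 0.61 and 0.38 in VSKO testes, 0.89 and 0.89 in HEMI testes, and 1.09 and 1.11 in WT testes, a difference of -0.60 ± 0.13 (± SE) between VSKO and WT with a limma adjusted p of 0.134. That probe starts at base 4689 of its transcript, and the deleted part of the gene is not given in the sources used here, so it checks the genotypes only by its order. VSKO and HEMI arrays lay in row 1 of the slide and WT arrays in row 2, so that slide row and genotype cannot be told apart in any comparison with WT; VSKO and HEMI shared a row. In bulk tissue, fewer cells of a type and less RNA per cell cannot be told apart either.

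All values below are log2 of the processed signal minus that array's 75th percentile, and a difference of 1 is a 2-fold change; differences are given ± SE from a fit with 2 animals a group. In VSKO testes, 3 of the 37 genes tested were lower than in WT and none was higher: Ldha, which makes lactate, and Pgk1 and Eno1, which catalyse late steps of glycolysis. That is 8.11% of the genes tested, while 0.619% of all 24553 genes were called lower and 0.346% higher (0.965% in all; limma, Benjamini-Hochberg adjusted p under 0.05 over all genes). Pgk1 and Eno1 were each read by 1 probe, placed off the gene's chromosome. The median VSKO minus WT difference over the 37 genes was -0.20, against -0.01 over all genes. Both VSKO arrays lay below both WT arrays in 21 genes (56.8%, against 23.4% of all genes), both lay above in 5 (13.5%, against 22.3%), and the groups overlapped in 11. At an unadjusted p under 0.05, 14 were lower and none higher, against 7.51% and 7.23% of all genes. With any 1 array left out, which leaves 1 animal in a group, the directions of the 3 genes that passed could not change. In each of them both VSKO arrays lay below both WT arrays, so only the sizes are informative. The VSKO minus WT differences were then -1.42 to -1.21 for Ldha, -1.08 to -0.94 for Pgk1 and -0.99 to -0.89 for Eno1. Fetal Leydig markers lay lower in VSKO and HEMI too: the linear signals of 9 of them summed to 115 and 116 in VSKO, 103 and 123 in HEMI, and 166 and 200 in WT, in units of the 75th percentile. Those of 17 germ cell markers summed to 39.2 and 37.2 in VSKO, 38.2 and 42.8 in HEMI, and 44.0 and 48.4 in WT, also lower than in WT on all 4 arrays, and the part of either in the glycolytic differences was not tested.

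In HEMI testes none of the 37 genes passed against WT, where 0.0855% of all genes were called lower and 0.0326% higher (0.118% in all). At an unadjusted p under 0.05, 18 were lower (48.6%, against 7.68% of all genes) and 1, Pdk2, was higher (against 4.76%), and the median difference was -0.33, against -0.02 over all genes. Both HEMI arrays lay below both WT arrays in 24 genes (64.9%, against 28.4% of all genes) and above them in 2 (5.41%, against 20.9%). The comparisons of VSKO and of HEMI with WT use the same 2 WT arrays, so a gene high in WT lies low in both. The plot of every array shows the separation gene by gene.

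**Figure D1:**
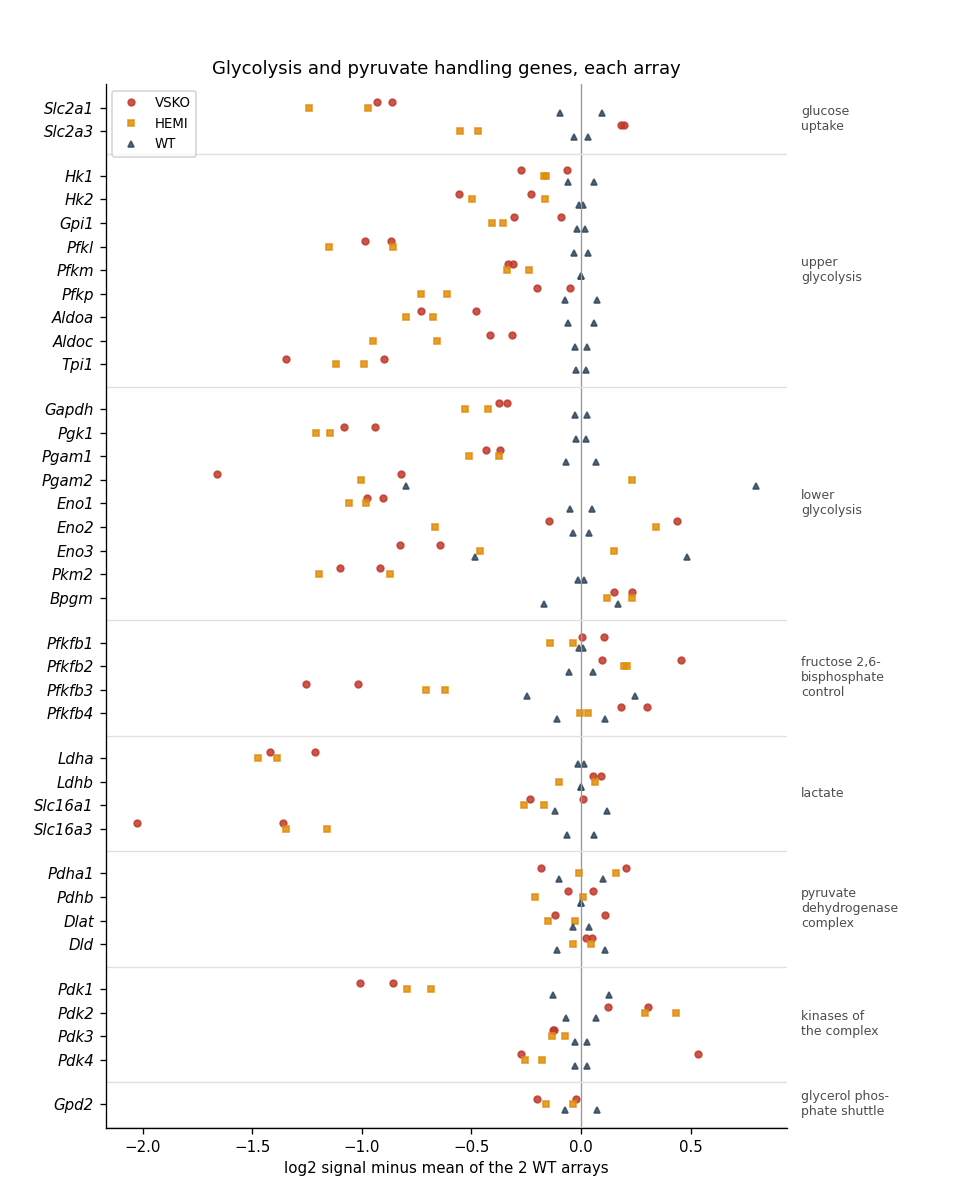
Log2 signal of the 37 tested genes in each array, minus the mean of the 2 WT arrays, with genes down the page grouped by role and the VSKO, HEMI and WT arrays as circles, squares and triangles. For Ldha, Slc16a3, Tpi1, Pgk1, Eno1, Pkm2, Pfkl and Slc2a1 all VSKO and HEMI arrays lie well left of WT, while the genes of the pyruvate dehydrogenase complex lie around 0 in all groups.

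Glucose enters these cells through facilitative transporters. Slc2a1 (GLUT1), the basal glucose transporter, had log2 signals of 2.11 and 2.04 in VSKO testes, 1.73 and 2.00 in HEMI testes, and 3.07 and 2.88 in WT testes. Both VSKO and both HEMI arrays lay below both WT arrays; the difference was -0.90 ± 0.15 in VSKO with a limma adjusted p of 0.0814, and -1.11 ± 0.15 in HEMI with 0.0940, neither of which passed. Slc2a3 (GLUT3), a transporter of high affinity, did not follow it: its signals were 1.67 and 1.68 in VSKO testes, 0.93 and 1.01 in HEMI testes, and 1.51 and 1.45 in WT testes. Here VSKO lay just above WT and HEMI below both other groups. The VSKO minus HEMI difference of 0.70 ± 0.11 had the lowest unadjusted p of the 37 genes in that comparison, 0.00138 (limma), and an adjusted p of 0.146.

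The 9 genes of upper glycolysis, from hexokinase to triose phosphate isomerase, all had negative differences from WT in both VSKO and HEMI, none past the adjusted threshold. Pfkl, the liver-type subunit of phosphofructokinase, the committed step, had log2 signals of 1.11 and 1.23 in VSKO testes, 0.95 and 1.24 in HEMI testes, and 2.13 and 2.06 in WT testes. Neither VSKO nor HEMI overlapped WT, with differences of -0.93 ± 0.15 in VSKO (limma adjusted p 0.0736) and -1.0 ± 0.15 in HEMI (0.106). The other subunits lay nearer to WT: Pfkm, the muscle type, differed by -0.32 in VSKO and -0.29 in HEMI, and Pfkp, the platelet type, by -0.13 and -0.67. The Pfkm probe is printed 10 times on each array, and the SD over its spots within an array was 0.03 to 0.07, which is spot error only and not the spread between animals; the VSKO difference had a limma adjusted p of 0.295. Tpi1, which interconverts the triose phosphates, had signals of 3.91 and 4.36 in VSKO testes, 4.27 and 4.14 in HEMI testes, and 5.24 and 5.28 in WT testes. No VSKO or HEMI array reached the WT arrays, and the differences were -1.12 ± 0.18 (adjusted p 0.0761) in VSKO and -1.05 ± 0.18 (0.135) in HEMI by limma. The aldolases cleave fructose 1,6-bisphosphate. Aldoa differed by -0.61 ± 0.14 in VSKO and -0.74 ± 0.14 in HEMI. Aldoc had signals of 3.20 and 3.1 in VSKO testes, 2.57 and 2.86 in HEMI testes, and 3.49 and 3.54 in WT testes. For Aldoc, HEMI lay lowest and VSKO between HEMI and WT with no overlap, at -0.36 ± 0.15 in VSKO (adjusted p 0.343) and -0.80 ± 0.15 in HEMI (0.145, limma). Hexokinases Hk1 and Hk2, which trap glucose as its phosphate, differed by -0.17 and -0.39 in VSKO and by -0.16 and -0.33 in HEMI. The Hk1 values are those of a probe placed off the gene's chromosome. Gpi1, glucose phosphate isomerase, differed by -0.20 in VSKO and -0.38 in HEMI.

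Lower glycolysis, where ATP is made, held 2 of the 3 genes that passed. Pgk1, phosphoglycerate kinase, makes the first ATP of the pathway and had log2 signals of 4.29 and 4.15 in VSKO testes, 4.09 and 4.02 in HEMI testes, and 5.21 and 5.26 in WT testes. Both VSKO and both HEMI arrays lay below both WT arrays. It fell by 1.01 ± 0.12 on the log2 scale (SE, n = 2 a group) in VSKO against WT, 0.50 times the WT level, with a limma adjusted p of 0.0430. The HEMI minus WT difference was -1.18 ± 0.12, with an adjusted p of 0.0571. Eno1, the ubiquitous enolase, had signals of 5.85 and 5.78 in VSKO testes, 5.70 and 5.78 in HEMI testes, and 6.81 and 6.71 in WT testes. It too showed no overlap with WT. It fell by 0.94 ± 0.12 in VSKO (to 0.52 times WT, limma adjusted p 0.0458). Its HEMI minus WT difference was -1.02 ± 0.12 (limma adjusted p 0.0711). The only probes of Pgk1 and Eno1 were placed off their genes' chromosomes. Pkm2, the array's name for pyruvate kinase of muscle and most other tissues, had signals of 3.94 and 3.76 in VSKO testes, 3.98 and 3.66 in HEMI testes, and 4.84 and 4.87 in WT testes. Its differences were of the same size, -1.01 ± 0.16 in VSKO (adjusted p 0.0706) and -1.03 ± 0.16 in HEMI (0.114), but did not pass. Gapdh, often used as a reference gene, differed by -0.36 ± 0.12 in VSKO and -0.47 ± 0.12 in HEMI, and Pgam1, the general phosphoglycerate mutase, by -0.40 ± 0.13 and -0.44 ± 0.13. The remaining genes varied between animals of a group. Pgam2 and Eno3, the muscle forms of mutase and enolase, had replicate arrays up to 1.60 apart. Pgam2 had signals of -1.50 and -0.66 in VSKO testes, -0.84 and 0.40 in HEMI testes, and 0.96 and -0.64 in WT testes, and the highest arrays, WT 1 and HEMI 2, were also those highest in skeletal muscle markers. The sum of the linear signals of 13 such markers was 10.5 and 27.0 in VSKO, 24.3 and 67.1 in HEMI, and 74.5 and 13.8 in WT, in units of the 75th percentile; its part in Pgam2 and Eno3 was not tested. Eno2, the neuronal enolase, and Bpgm, which makes 2,3-bisphosphoglycerate, differed by 0.15 and 0.19 in VSKO. Pklr, pyruvate kinase of liver and red cells, was not well above background on any array.

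The level of fructose 2,6-bisphosphate, the activator of phosphofructokinase, is set by the Pfkfb enzymes. Pfkfb3, the form with the strongest kinase activity, had log2 signals of 0.42 and 0.65 in VSKO testes, 0.96 and 1.05 in HEMI testes, and 1.42 and 1.92 in WT testes. On the probe used in the fit all 3 groups were apart, VSKO lowest, with differences of -1.14 ± 0.20 in VSKO (limma adjusted p 0.0924), -0.66 ± 0.20 in HEMI (0.307) and -0.47 ± 0.20 between VSKO and HEMI (0.720). A second probe, to another transcript record of Pfkfb3, also had both VSKO and both HEMI arrays below WT, at -0.93 ± 0.35 and -0.97 ± 0.35. This probe was much dimmer, with signals of -5.22 and -4.63 in VSKO, -5.25 and -4.69 in HEMI, and -4.35 and -3.64 in WT. On it VSKO and HEMI overlapped and differed by 0.04 ± 0.35, so the order of VSKO below HEMI was seen on 1 probe only. The other 3 forms had small positive differences in VSKO, of 0.05 for Pfkfb1, 0.27 for Pfkfb2 and 0.24 for Pfkfb4.

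The largest change in this pathway that passed was in Ldha, the lactate dehydrogenase subunit that favours lactate. It had log2 signals of 5.69 and 5.90 in VSKO testes, 5.64 and 5.72 in HEMI testes, and 7.12 and 7.09 in WT testes. Every VSKO and HEMI array lay more than 1 unit below both WT arrays, and VSKO and HEMI overlapped each other. It fell by 1.32 ± 0.13 in VSKO against WT (95% interval -1.64 to -0.99), to 0.40 times the WT level, with a limma adjusted p of 0.0307. The HEMI minus WT difference was -1.43 ± 0.13 (95% interval -1.76 to -1.10, adjusted p 0.0519). Ldhb, the subunit that favours pyruvate, had signals of 5.88 and 5.85 in VSKO testes, 5.69 and 5.86 in HEMI testes, and 5.79 and 5.79 in WT testes, which overlapped in HEMI and WT and differed by only 0.07 ± 0.12 in VSKO (95% interval -0.23 to 0.38). Slc16a3 (MCT4), the exporter of lactate in glycolytic cells, had the largest negative difference of the 37 genes in VSKO against WT. Its signals were 2.03 and 2.70 in VSKO testes, 2.71 and 2.90 in HEMI testes, and 4.0 and 4.12 in WT testes. No VSKO or HEMI array reached the WT arrays, with differences of -1.69 ± 0.24 in VSKO (adjusted p 0.0583) and -1.25 ± 0.24 in HEMI (0.162), neither past the threshold. Slc16a1 (MCT1), which takes lactate up or releases it, differed by -0.11 in VSKO and -0.21 in HEMI.

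Ldha was measured by 3 probes that share no base, all placed on chromosome 7 where the gene lies. The pair nearest the start of the transcript is shown because these probes read other bases than the probe from base 1755 that gave the values above. They lie at chr7:54103010-54103069 and chr7:54107294-54107353 of mm9, plus strand, in lower case as no base is marked.
Ldha probe from base 351: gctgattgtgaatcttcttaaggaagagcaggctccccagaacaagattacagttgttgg
Ldha probe from base 970: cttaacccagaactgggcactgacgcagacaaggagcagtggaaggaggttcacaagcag
The first had log2 signals of 0.29 and 0.46 in VSKO testes, 0.34 and 0.47 in HEMI testes, and 1.95 and 1.83 in WT testes. The second had signals of 2.48 and 2.60 in VSKO testes, 2.47 and 2.53 in HEMI testes, and 4.2 and 4.15 in WT testes. On both, every VSKO and HEMI array lay more than 1 unit below WT. With each probe fitted as its own feature, where 0.449% of 34335 probes were called lower in VSKO, all 3 passed: the differences in transcript order were -1.52 ± 0.14, -1.63 ± 0.12 and -1.32 ± 0.13, with limma adjusted p of 0.0306, 0.0263 and 0.0340. In HEMI, where 0.0961% of probes were called lower, the probe from base 970 passed (-1.68 ± 0.12, adjusted p 0.0324).

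**Figure D2:**
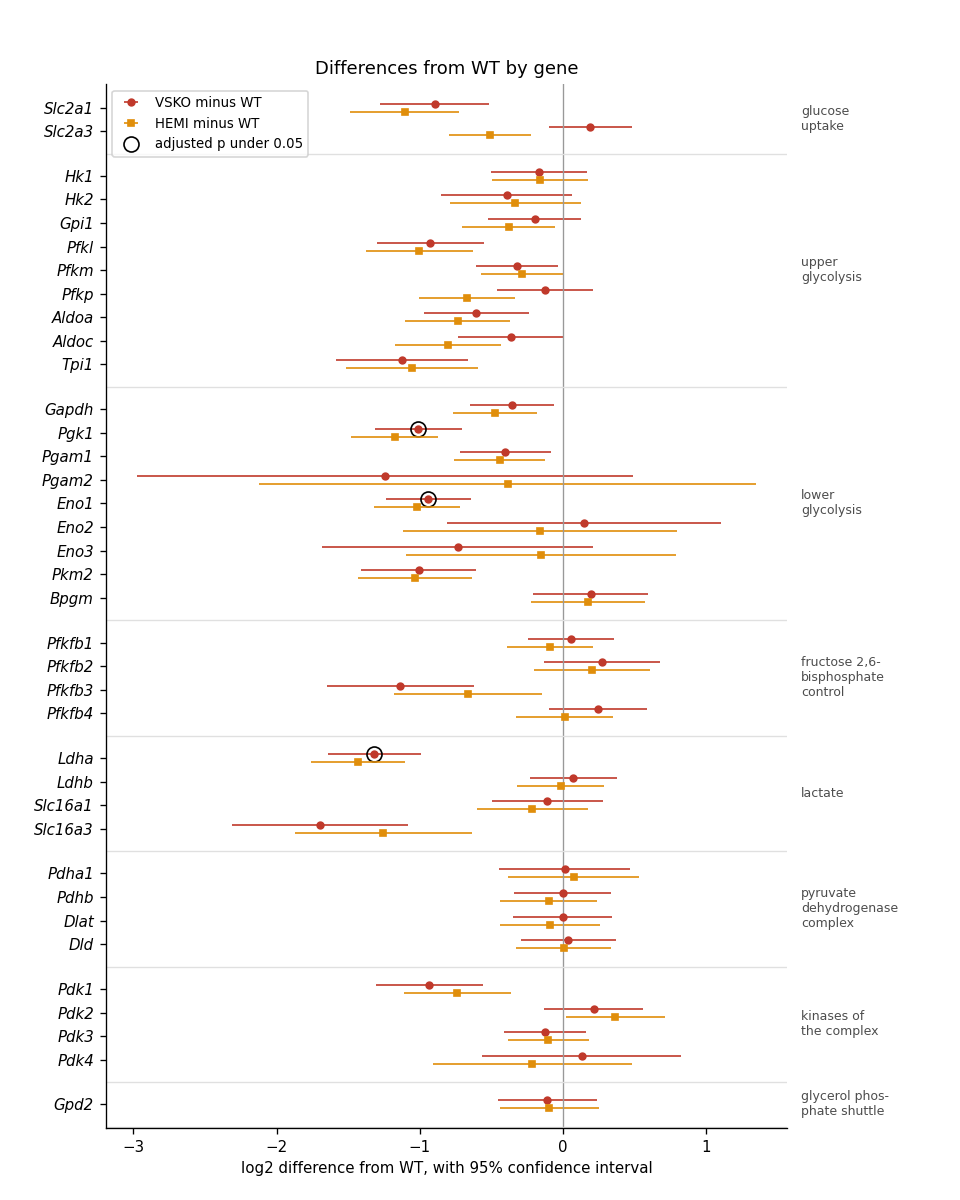
Difference from WT (log2) of each tested gene with its 95% confidence interval from the limma fit, VSKO as circles and HEMI as squares, grouped by role; black rings mark the 3 genes with an adjusted p under 0.05 in VSKO, Ldha, Pgk1 and Eno1. Slc2a3 has its VSKO point right of 0 and its HEMI point left of it.

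Beyond pyruvate, the 4 genes of the pyruvate dehydrogenase complex had differences near 0. Pdha1 (the E1 alpha subunit), Pdhb (E1 beta), Dlat (E2) and Dld (E3) differed by 0.01, -0.003, -0.0022 and 0.04 in VSKO, and by 0.08, -0.10, -0.09 and 0.0033 in HEMI. The groups overlapped for all 4, and the widest 95% interval in VSKO ran from -0.45 to 0.47 (Pdha1). Among the kinases that switch the complex off, Pdk1 had the largest differences from WT. Its log2 signals were -0.22 and -0.37 in VSKO testes, -0.05 and -0.16 in HEMI testes, and 0.51 and 0.76 in WT testes, all VSKO and HEMI arrays below WT. The differences were -0.93 ± 0.15 in VSKO (limma adjusted p 0.0713) and -0.74 ± 0.15 in HEMI (0.167), neither of which passed. Pdk2 lay slightly higher (0.22 in VSKO, 0.36 in HEMI), Pdk3 differed by -0.13 and -0.10, and Pdk4, the kinase that rises in fasting in many tissues, by 0.13 and -0.21.

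The glycerol phosphate shuttle moves reducing equivalents from cytosolic NADH into mitochondria. Gpd2, its mitochondrial enzyme, differed by -0.11 in VSKO and -0.10 in HEMI. Gpd1, its cytosolic enzyme, was not in the fit because its only spot on HEMI array 2 carried an outlier flag. Its log2 signals were -2.37 and -2.17 in VSKO testes, -1.49 on HEMI array 1 (3.12 for the spot with the flag), and -0.01 and 0.32 in WT testes. Both VSKO arrays lay more than 2 units below both WT arrays. With that spot treated as missing, a setting chosen after seeing the data, the VSKO minus WT difference was -2.42 ± 0.18 with a limma adjusted p of 0.0305; with the spot kept it was -2.42 ± 1.43 with 0.509. The VSKO minus WT difference was the same in both settings and the call was not, since the 3 groups share 1 estimate of the spread.

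VSKO and HEMI were compared directly, within 1 row of the slide. None of the 37 genes passed, where 0.0407% of all genes were called lower and 0.102% higher (0.143% in all), and the median difference was 0.08, against 0.02 over all genes. At an unadjusted p under 0.05, none was lower (3.26% of all genes) and 3 were higher in VSKO (8.11%, against 4.43% of all genes): Slc2a3 (0.70 ± 0.11), Pfkp (0.54 ± 0.13) and Aldoc (0.44 ± 0.15). Both VSKO arrays lay below both HEMI arrays in 4 genes (10.8%, against 14.1%) and above in 10 (27.0%, against 18.8%). For the genes that passed against WT, the VSKO minus HEMI difference was 0.11 ± 0.13 for Ldha (95% interval -0.21 to 0.44), 0.17 ± 0.12 for Pgk1 (-0.14 to 0.47) and 0.08 ± 0.12 for Eno1 (-0.22 to 0.38). Each interval holds 0 and also sizeable differences, so they do not show that the groups are alike.

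Glycolytic genes have many processed copies in the mouse genome, so each probe's place was compared with its gene's. By the position column of the deposited files, in build mm9, 6 of the 61 probes lay on a chromosome other than that of their gene, in 4 genes (Gapdh, Hk1, Pgk1 and Eno1), as did 0.813% of 30523 probes over the array. The only probe of Pgk1, a gene on X, was placed at chr3:57906830-57906894, a span of 65 bases for a probe of 60. The only probe of Eno1, a gene on chromosome 4, was placed at chr2:80678866-80678925. Whether these 2 probes read the gene, a copy or both cannot be told apart here, and both calls rest on them. With probes placed elsewhere left out, Ldha alone remained called.

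Gapdh had 8 probes, 5 on its own chromosome and 3 placed on chromosomes 7, 8 and X, the brightest of which (chromosome 7) gave the values above. The 5 differed from WT by -0.46 to -0.38 in VSKO and the 3 by -0.43 to -0.36, so that the sets overlapped. They are not fully separate readings, since the probe placed on X shares 49 bases with 1 of the 5. Another of the 5, a probe of 60 bases, was placed over a span of only 19. Hk1 was read by a probe placed on chromosome 5 that differed by -0.17 in VSKO, beside -0.44 and -0.29 for its probes on chromosome 10. The mean WT signal was 7.52 on the first probe, against -0.07 and 3.28 on those 2. Whether all 3 read the same transcript cannot be told here. Pdhb had probes that disagreed: the 2 to the reference transcript, which share 15 bases, differed by -0.06 and -0.003 in VSKO. The probe to another transcript record had signals of -1.84 and -3.77 in VSKO testes, -2.59 and -3.40 in HEMI testes, and -4.24 and -3.71 in WT testes. Its VSKO replicates lay far apart and 1 of them overlapped WT, and the difference of 1.17 ± 0.68 had a limma adjusted p of 0.499. The 2 Dld probes had differences of opposite sign but near 0, at -0.04 and 0.04 in VSKO. The 2 Slc16a3 probes start 7 bases apart and share 53 bases, so their like differences (-1.69 and -1.69 in VSKO) are close to 1 measurement.

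**Figure D3:**
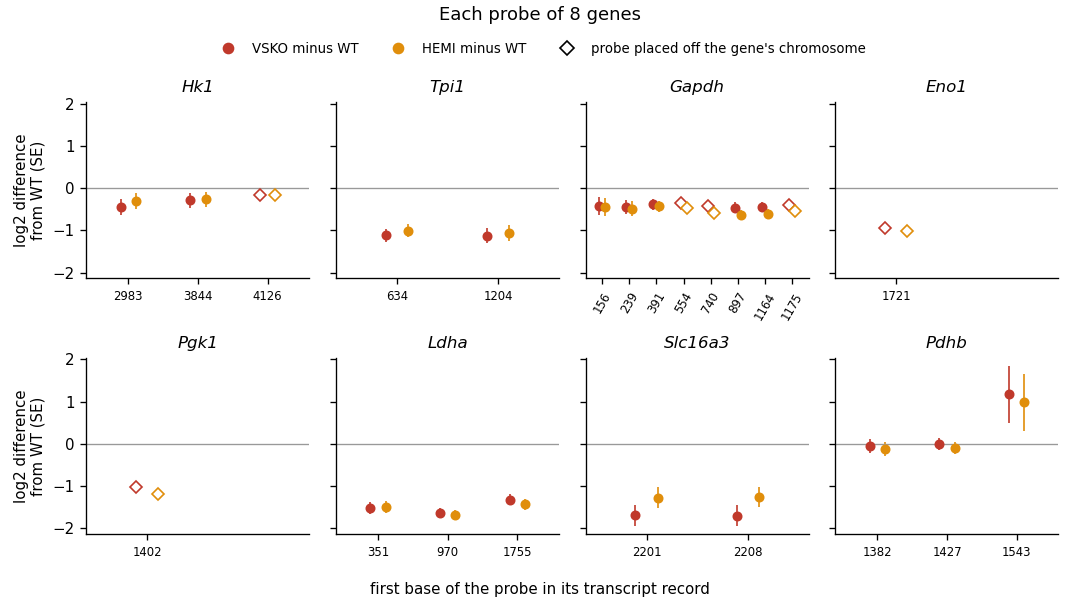
Difference from WT (log2, bars are SE) of each probe of 8 genes, in the order of the probes' first base in the transcript record, VSKO left of HEMI for each probe; open diamonds are probes placed off their gene's chromosome. The 3 Ldha probes lie between -1.68 and -1.32, and of the 8 genes shown Pdhb has probes on both sides of 0.

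Since several of these genes are known targets of hypoxia-inducible factors, the promoters were searched for ACGTG, a form of the core that those factors bind, on both strands, and for the E-box CACGTG, which contains it and is bound by MYC and USF. RefSeq promoter windows of GRCm38.p6, from 250 bases before to 50 after the start, were found for 37 of the 39 genes (not for Gpd1 and Slc2a3; Pkm2 was matched as Pkm). The motif was present in at least 1 window of 19 of these 37 genes (51.4%), against 21.8% of all 27025 genes, and the E-box in 6 (16.2%, against 8.09%). By window it was 23 of 58 (39.7%), against 19.6% of all 32851. These are descriptions of letters in a window, not of binding. Of the genes that passed, Ldha held 3 sites in 1 of its windows, 2 of them E-boxes, Pgk1 held 2 and Eno1 none in its 3 windows; Tpi1, Pfkl and Pdk1 also held none. The 250 bases before the start are shown for 4 genes with low signals in VSKO and HEMI, with each match in capitals: Ldha (chr7:46845554-46845803), Pgk1 (chrX:106186850-106187099), Slc16a3 (chr11:120948817-120949066) and Slc2a1 (chr4:119108495-119108744), all plus strand.
Ldha promoter: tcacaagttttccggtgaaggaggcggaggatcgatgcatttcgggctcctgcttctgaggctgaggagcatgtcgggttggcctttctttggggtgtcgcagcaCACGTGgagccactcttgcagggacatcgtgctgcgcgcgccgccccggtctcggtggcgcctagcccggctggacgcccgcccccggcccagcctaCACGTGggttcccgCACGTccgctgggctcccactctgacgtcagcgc
Pgk1 promoter: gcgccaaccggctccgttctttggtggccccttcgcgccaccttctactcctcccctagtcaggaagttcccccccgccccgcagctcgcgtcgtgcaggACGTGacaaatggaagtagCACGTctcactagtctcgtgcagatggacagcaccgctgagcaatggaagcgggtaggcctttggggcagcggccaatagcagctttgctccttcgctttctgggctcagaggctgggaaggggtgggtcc
Slc16a3 promoter: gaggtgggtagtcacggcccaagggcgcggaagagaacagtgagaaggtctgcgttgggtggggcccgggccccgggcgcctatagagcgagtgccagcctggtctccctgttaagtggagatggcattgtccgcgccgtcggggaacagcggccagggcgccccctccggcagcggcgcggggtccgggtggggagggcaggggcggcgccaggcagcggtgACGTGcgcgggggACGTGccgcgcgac
Slc2a1 promoter: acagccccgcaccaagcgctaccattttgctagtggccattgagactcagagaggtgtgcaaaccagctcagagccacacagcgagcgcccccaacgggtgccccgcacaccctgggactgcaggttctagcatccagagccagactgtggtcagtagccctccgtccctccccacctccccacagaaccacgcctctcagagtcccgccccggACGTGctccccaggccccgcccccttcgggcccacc
In Ldha the matches start 145, 48 and 34 bases before the start, in Pgk1 150 and 131, in Slc16a3 27 and 14, and in Slc2a1 36 bases before it.

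Genes of the neighbouring pathways were set beside these. Of 20 citric acid cycle genes none passed in any comparison and none had an unadjusted p under 0.05 (limma); their VSKO minus WT median was -0.01. None of 12 pentose phosphate, 17 glycogen, 7 gluconeogenesis or 15 other pyruvate handling genes passed, and at an unadjusted p under 0.05 in VSKO against WT 1, 3, 1 and 2 of them were lower and 0, 1, 0 and 1 higher. Over all genes 7.51% were lower and 7.23% higher at that p, so counts this small do not set these lists apart. The lowest p in these lists belonged to Tkt (transketolase, -0.56 ± 0.14), Pgm2l1 (-0.83 ± 0.16), G6pc (glucose 6-phosphatase, -0.61 ± 0.21) and Me1 (malic enzyme, 0.37 ± 0.12). Of 23 other glycolysis and glucose entry genes 1 passed in VSKO, where 0.346% of all genes were called higher. This was Slc2a9, a transporter known chiefly for urate. Its signals were -2.86 and -2.77 in VSKO testes, -3.1 and -3.33 in HEMI testes, and -4.29 and -4.29 in WT testes, higher in VSKO than in WT by 1.48 ± 0.13 (limma adjusted p 0.0281). Of 27 HIF factors and other hypoxia targets 1 passed in VSKO, where 0.619% of all genes were called lower. At an unadjusted p under 0.05, 5 of them were lower and 1 higher in VSKO. P4ha1, a collagen prolyl hydroxylase, had signals of -1.47 and -1.11 in VSKO testes, -1.37 and -1.39 in HEMI testes, and 0.0018 and 0.23 in WT testes and fell by 1.41 ± 0.17 in VSKO (adjusted p 0.0442). Bnip3, a mitophagy receptor, differed by -0.93 ± 0.13 (0.0530). That list's VSKO minus WT median was -0.18. The RNA of the factors differed by -0.02 (Hif1a), 0.10 (Epas1) and -0.03 (Arnt) in VSKO, and their protein was not measured here. None of 11 MYC and other regulators passed. In VSKO against WT 1 of them was lower and none higher at an unadjusted p under 0.05 (limma), with differences from -0.55 to 0.25. Myc, which was not that gene, differed by -0.44 ± 0.30.

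Cell type markers were read in the same way. Of the 9 fetal Leydig markers tested, 1 passed in VSKO against WT: Cyp17a1, a steroidogenic enzyme, fell by 1.40 ± 0.16 (limma adjusted p 0.0426). Over all genes 0.619% were called lower in VSKO. Their median difference from WT was -0.89 in VSKO and -0.87 in HEMI. At an unadjusted p under 0.05, 6 of these markers were lower and 1 higher in both. Over all genes 7.51% were lower and 7.23% higher in VSKO, and 7.68% and 4.76% in HEMI. On all arrays 8 of the 9 markers were above background. Of the defining steroidogenic markers, Star differed by -1.83 ± 0.41 and Cyp11a1 by -0.89 ± 0.15 in VSKO, while Hsd3b1 differed by 0.03 ± 0.18.

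Of 17 germ cell markers 2 were lower in VSKO than in WT, Dnmt3l and Nanos2 (Nanos2 above background on 4 of 6 arrays), both regulators of fetal male germ cells, where 0.619% of all genes were called lower, and the median was -0.49. In VSKO, 16 of the 17 differences were below 0, and 9 genes were lower and none higher at an unadjusted p under 0.05 (7.51% and 7.23% of all genes); in HEMI 6 were lower and 1 higher (7.68% and 4.76%). Dnmt3l, a cofactor of DNA methylation, was also lower in HEMI (-2.19 ± 0.18, limma adjusted p 0.0428). Ddx4 itself had signals of 1.73 and 2.08 in VSKO testes, 2.18 and 2.31 in HEMI testes, and 2.05 and 2.25 in WT testes. None of 13 Sertoli markers passed, with a VSKO minus WT median of 0.01 and summed signals of 509 and 488 in VSKO, 449 and 492 in HEMI, and 529 and 534 in WT. The summed red cell signal was 450 and 969 in VSKO, 402 and 427 in HEMI, and 481 and 476 in WT, so that VSKO array 2 stood out. None of the 8 interstitial progenitor, 7 myoid, 7 endothelial, 8 macrophage, 7 red cell, 13 skeletal muscle or 6 adipocyte markers passed in any comparison. Of 8 markers of the mesonephric duct, epididymis and rete testis, Lhx1 was higher in VSKO than in WT (1.25 ± 0.15, limma adjusted p 0.0433). Over all genes 0.346% were called higher in that comparison.

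By the median over a list's genes on each array, both WT arrays lay above the other 4 in 4 of the 8 roles of the glycolytic genes (glucose uptake, upper and lower glycolysis, and lactate). The same held for 5 of the 8 neighbouring lists (glycogen, gluconeogenesis, other pyruvate handling, other glycolysis and hypoxia targets). It also held for 2 of the 11 cell type lists (germ cells and fetal Leydig cells). The margins differed. The lower WT array and the highest other array were at 0.253 and -0.109 for upper glycolysis. They were nearly tied for other glycolysis (0.0367 and 0.0322) and glycogen (0.0725 and 0.0610). For hypoxia targets they were at 0.0973 and -0.0668, for germ cells at 0.283 and 0.0390, and for fetal Leydig cells at 0.510 and -0.127. So a separation from WT was not limited to the glycolytic genes, but in some lists it was slight. Both WT arrays lay below the other 4 for the interstitial progenitor list.

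**Figure D4:**
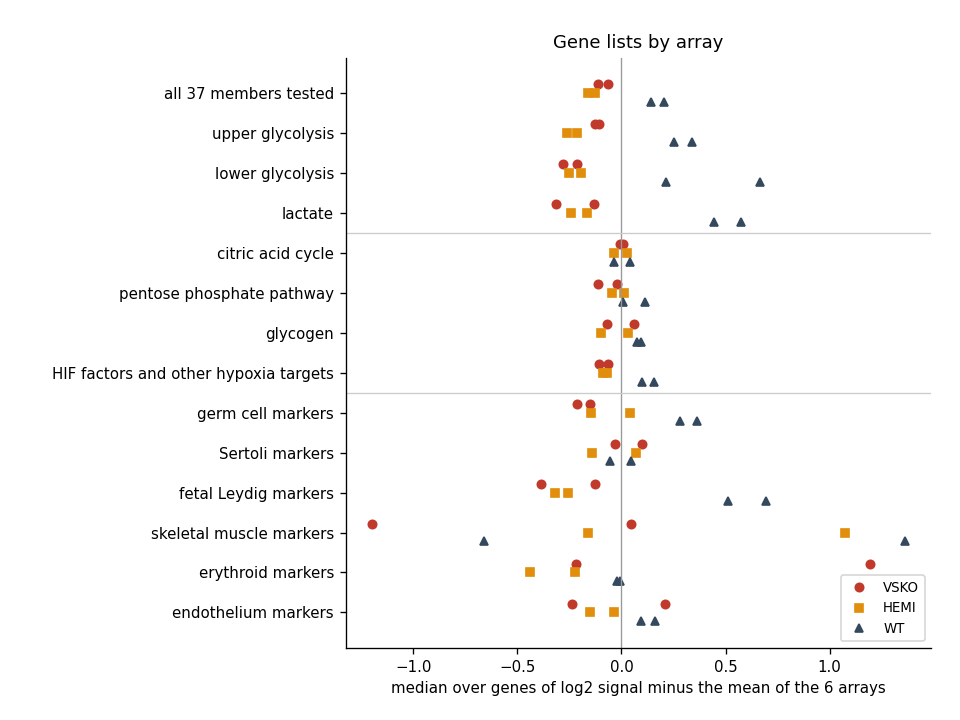
Median over the genes of each list of the log2 signal minus its mean over the 6 arrays, with the VSKO, HEMI and WT arrays as circles, squares and triangles; the top block holds the glycolytic genes, the middle block neighbouring pathways and the lower block cell type markers. The all-member, upper glycolysis, lower glycolysis, lactate, glycogen, hypoxia target, germ cell and fetal Leydig lists have both WT arrays to the right of the other 4, and the other lists shown do not.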

How the data were processed

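Total RNA of whole testes was labelled with Cy3 and hybridised to 1-colour Agilent arrays, 1 per animal. Each deposited array file gives a processed intensity for its 62976 spots, linear and, per the file headers, already corrected for background and spatial trend by the authors' scanner software. Mean and background intensity and 0 or 1 quality flags (unit: other) stand beside it, per the file headers. The submitters' processing notes name Agilent Feature Extraction 8.5.1.1, and per the file headers the extraction modules had version 10.7.3.1. The authors' series table, also an intensity, equals each processed signal divided by its array's median within 0.00105%.

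Here log2 of that intensity was taken, less the array's own 75th percentile (59305 non-control spots). Spots flagged as outliers (99 to 116 per array) were dropped and spots of a probe averaged. The 34335 probes called well above background on 2 arrays of some group were kept, and a gene was read by its probe of highest mean. limma 3.58.1 (R 4.3.3) fitted 3 group means with a shared spread (3 residual and 2.25 prior degrees of freedom), with Benjamini-Hochberg adjustment over 24553 genes, and was tested on simulated data. Old symbols were updated by accession through RefSeq (GRCm38.p6); probe positions are in mm9.

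The genes and lists were chosen with earlier results of these data known. Named are genes that passed, up to 8 more of lowest p against WT, genes whose probes disagree, and, in each other list, those that passed or, failing that, the lowest p. Some others, such as Myc, Hif1a and Ddx4, are named besides. In all, 18 other settings, and 2 more chosen after seeing the data, were run. With 2 animals a group, p-values measure only the spread between these animals, and an exact permutation test could not go below 0.333. The number of arrays limits the precision.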

Additional observations from a re-analysis of the deposited data

How the results depend on the processing

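The differences of the 11 genes named first from WT kept their direction in every setting run. Without 1 array that direction could not change, since no VSKO or HEMI array of these genes reached the WT arrays. Which of the 11 passed varied. Of the genes tested here, 3 were lower in VSKO than in WT with 75th percentile scaling, as were 152 of all genes. Counts here and over all genes were 1 and 120 with quantile normalization, and 10 and 221 with normexp background. They were 0 and 8 with no filter on dim probes, and 1 and 146 with probes on the gene's own chromosome. An intensity trend gave 10 and 225, only the 2 groups compared 0 and 19, and a replicate block 0 and 10. In the settings where no gene here passed, few passed over all genes. In HEMI against WT the counts here and over all genes were 0 and 21 with 75th percentile scaling and 1 and 24 with quantile normalization. Normexp background gave 5 and 112, and probes above background on all 6 arrays gave 2 and 55. The mean of a gene's probes gave 1 and 25, each probe as its own feature 1 and 33, and an intensity trend 6 and 108. The labels do not say whether the replicate numbers pair the animals. Same-numbered arrays deviated with correlations of -0.04, -0.03 and -0.01 over all genes, which cannot exclude a source shared by fewer genes. The settings are not all separate checks. The series table repeats median scaling, and leaving out an array of the third group repeats the fit of only the 2 groups compared. In VSKO against WT, the limma adjusted p of Ldha was 0.00980 with normexp background and 0.0761 with no filter on dim probes. For Pgk1 these were 0.0174 and 0.0973, and for Eno1 0.0200 and 0.103.

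The median VSKO minus WT difference was -0.15 with quantile normalization, -0.24 with no filter, -0.30 with the mean of a gene's probes, -0.36 with each probe on its own, and -0.26 with outlier spots kept or missing, which adds Gpd1; it was -0.27 to -0.20 without 1 array. In HEMI it was -0.29 with median scaling, quantile normalization, the series table or own-chromosome probes, -0.28 with normexp, -0.40 with each probe on its own, and -0.42 to -0.26 without 1 array. Between VSKO and HEMI it was 0.0054 with median scaling or the series table and 0.017 to 0.092 without 1 array. Apart from the smaller designs and probe choices, the cause of these shifts was not tested. Dim probes such as Pklr and the early Pfkfb4 probe give no level here.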

Other observations

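Testis forms of glycolytic enzymes, which replace the general forms later in sperm development, were read as well. Ldhc, the lactate dehydrogenase of meiotic and later germ cells, had log2 signals of -0.31 and -0.26 in VSKO testes, -1.21 and -1.08 in HEMI testes, and -0.02 and -0.19 in WT testes. Both HEMI arrays lay below all arrays of the other groups; the differences were -0.18 ± 0.13 in VSKO and -1.04 ± 0.13 in HEMI against WT (limma adjusted p 0.575 and 0.0844), and 0.86 ± 0.13 between VSKO and HEMI (0.134). HEMI was lowest for Slc2a3 too, but there VSKO lay just above WT, while for Ldhc it lay just below WT. Eno4, an enolase of sperm, had signals of -3.53 and -3.45 in VSKO testes, -4.19 and -4.35 in HEMI testes, and -4.68 and -5.44 in WT testes, a VSKO minus WT difference of 1.57 ± 0.26 (adjusted p 0.0812) that did not pass. Pdha2, the testis form of the pyruvate dehydrogenase alpha subunit, had signals of -4.48 and -4.46 in VSKO testes, -3.74 and -3.81 in HEMI testes, and -3.98 and -4.41 in WT testes and differed by -0.28 in VSKO and 0.42 in HEMI. Gapdhs, the sperm form of Gapdh, was above background on 3 of 6 arrays. These 4 were named after their values were seen.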
